A study of Homo sapiens with 6 samples.

Results

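The enzymes that make serine and carry its carbon through the folate cycle were examined in MCF10DCIS.com cells, a basal-like human breast cancer line derived from the MCF10A lineage. The 10 genes PHGDH, PSAT1, PSPH, SHMT1, SHMT2, MTHFD1, MTHFD2, MTHFD1L, MTHFD2L and ALDH1L2 were chosen by name for their place in this pathway. Earlier results of these data were known when they were chosen. Each has a row among the 26334 genes of the count table. Poly-A RNA was sequenced from 3 libraries of cells infected with the control vector pRSI-U6-shLuc-UbiC-TagRFP-2A-Puro, whose shRNA targets luciferase (shLuc), and from 3 libraries of cells carrying the same vector with shWDR5 in its place (pRSI-U6-shWDR5-UbiC-TagRFP-2A-Puro), which silences WDR5, the WD40-repeat core subunit of histone H3 lysine 4 methyltransferase complexes. Both groups were grown in DMEM/F12 with 5% horse serum, L-glutamine, antibiotics, HEPES and calcium chloride and were selected with 3 µg/ml of puromycin. The study pooled WDR5 shRNAs in cells it injected into mice. Whether these libraries also carry a pool, and the time after infection, is not given in the sources used here. The labels number the libraries Rep1 to Rep3 without saying whether they came from separate infections, so p-values measure the spread between these libraries, which may be technical.

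Serine is made from the glycolytic intermediate 3-phosphoglycerate in 3 steps, catalysed by PHGDH, PSAT1 and PSPH. Serine hydroxymethyltransferase then moves a carbon unit from serine onto tetrahydrofolate and leaves glycine, in the cytosol through SHMT1 and in the mitochondrion through SHMT2. The folate-bound unit is interconverted by MTHFD1 in the cytosol and by MTHFD2, MTHFD2L and MTHFD1L in the mitochondrion, from which formate is sent out to the cytosol for purine and thymidylate synthesis. The pathway is known for its high activity in proliferating cells, and PHGDH for its amplification in some breast tumours.

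In shWDR5 cells the PHGDH and SHMT1 transcripts were 2.01-fold and 1.91-fold lower than in shLuc cells, MTHFD1, MTHFD2 and PSPH fell by smaller amounts, and SHMT2 and MTHFD2L rose. PSAT1, MTHFD1L and ALDH1L2 did not pass the test. Of the 10 genes, 5 were lower and 2 were higher in shWDR5 cells at an adjusted p below 0.05 in edgeR's quasi-likelihood test. This test called 56.5% of the 16117 genes tested, 29.9% lower and 26.6% higher, so that the count of 7 has to be read against a table in which most genes moved. With the added requirement of an absolute log2 fold change of at least 0.6 and a group mean above 0.5 RPKM (the read count scaled to exon length and library size), 2 of the 10 genes passed, PHGDH and SHMT1, both lower. That stricter rule called 18.4% of all genes tested, 10.5% lower and 7.9% higher. The library values of 7 of the 10 genes did not overlap between the groups, against 62.3% of all genes tested. The median log2 fold change of the 10 genes was -0.11 and that of all genes tested was -0.011.

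**Figure D1:**
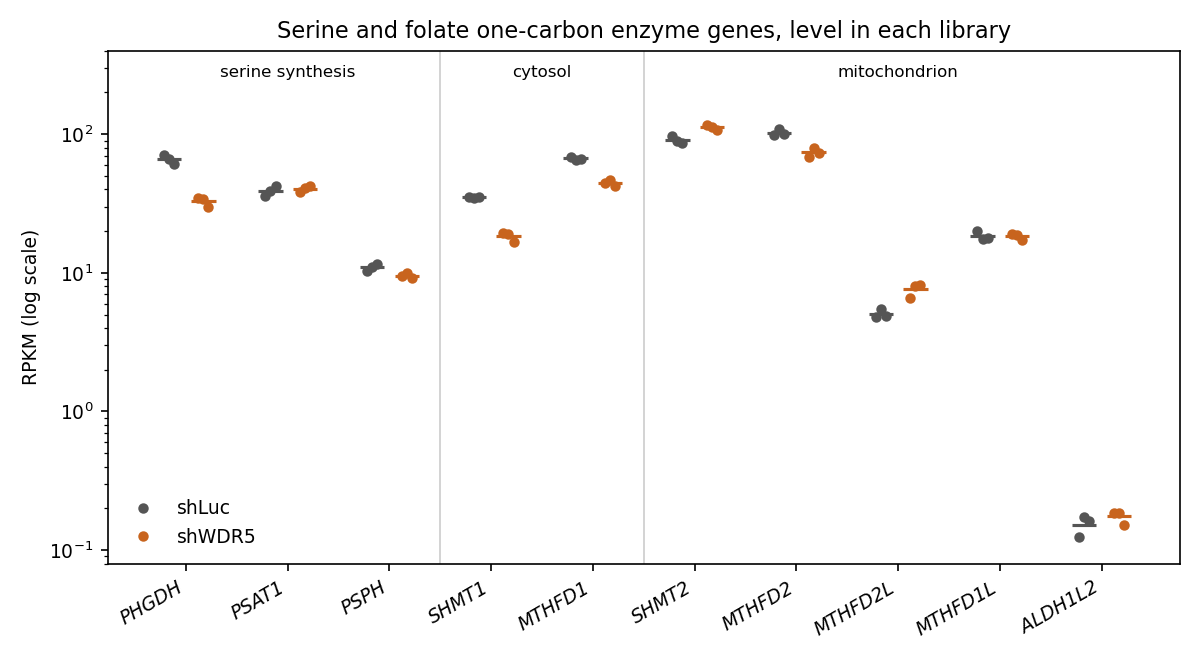
RPKM on a log axis of the 10 enzyme genes in each of the 3 shLuc (grey) and 3 shWDR5 (orange) libraries, with a bar at the group mean. The grey and orange points of PHGDH, SHMT1, MTHFD1 and MTHFD2 stand apart with shWDR5 lower, those of SHMT2 and MTHFD2L stand apart with shWDR5 higher, and those of PSAT1, MTHFD1L and ALDH1L2 overlap.

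The sequence just before the transcription start is shown for the 4 genes with the largest falls and for MTHFD2L, the gene with the largest rise, since the mark written by WDR5 complexes is known from promoters. For MTHFD2L the first of its starts in the table is shown. The sequences are the 250 bases upstream of the start in RefSeq's GRCh38.p14 annotation, read 5′ to 3′ along the gene, and capitals mark CACGTG (the E-box, a motif known to be bound by MYC and MAX) or CACGCG, a variant of it, on either strand.
PHGDH (chr1:119711684-119711933, plus strand): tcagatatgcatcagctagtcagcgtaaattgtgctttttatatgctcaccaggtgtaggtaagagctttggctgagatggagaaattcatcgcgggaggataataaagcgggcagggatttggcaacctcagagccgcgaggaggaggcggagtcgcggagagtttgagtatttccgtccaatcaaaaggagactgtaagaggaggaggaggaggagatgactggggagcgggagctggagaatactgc
SHMT1 (chr17:18363551-18363800, minus strand): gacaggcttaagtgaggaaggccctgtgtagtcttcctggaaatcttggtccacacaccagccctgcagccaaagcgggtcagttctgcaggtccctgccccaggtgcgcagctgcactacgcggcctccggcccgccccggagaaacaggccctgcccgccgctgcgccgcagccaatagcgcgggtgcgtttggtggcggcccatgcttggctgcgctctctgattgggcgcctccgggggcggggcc
MTHFD1 (chr14:64388103-64388352, plus strand): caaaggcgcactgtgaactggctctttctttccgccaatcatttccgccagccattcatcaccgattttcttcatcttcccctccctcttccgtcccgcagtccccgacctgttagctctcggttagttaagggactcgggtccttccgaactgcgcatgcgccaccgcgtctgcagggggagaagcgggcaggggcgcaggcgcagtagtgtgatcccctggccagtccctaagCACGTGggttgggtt
MTHFD2 (chr2:74198365-74198614, plus strand): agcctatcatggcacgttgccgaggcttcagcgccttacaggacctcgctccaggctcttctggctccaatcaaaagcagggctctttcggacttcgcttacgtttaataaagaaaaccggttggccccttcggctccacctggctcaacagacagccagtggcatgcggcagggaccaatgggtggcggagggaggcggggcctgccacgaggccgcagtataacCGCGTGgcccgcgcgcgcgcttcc
MTHFD2L (chr4:74157868-74158117, plus strand): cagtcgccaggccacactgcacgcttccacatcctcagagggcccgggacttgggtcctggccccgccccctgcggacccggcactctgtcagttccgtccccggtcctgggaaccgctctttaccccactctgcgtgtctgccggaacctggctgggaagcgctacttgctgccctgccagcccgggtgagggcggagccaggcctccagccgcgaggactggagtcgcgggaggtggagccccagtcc

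The table held 11 promoters of 7 of the 10 genes, 4 of them of MTHFD1L. It had no promoter of PSPH, SHMT2 or ALDH1L2, so nothing is said of motifs in those genes. CACGTG lay in 3 of the 11 promoters, in MTHFD1 at bases 15 to 10 before the start and in MTHFD1L at bases 154 to 149 before one start and 115 to 110 before another. The windows of these MTHFD1L starts overlap and hold the same site. Among all 35116 promoters listed, 6.34% hold this motif in the same window. CACGCG was found in 1 of the 11, that of MTHFD2, in reverse orientation 24 to 19 bases before the start, against 9.72% of all promoters. The C/EBP-ATF element TGATGNAA, known to be bound by ATF4, was found in 2 of the 11, and 3.14% of all promoters hold it. Both are the overlapping MTHFD1L windows, which hold the same site of this element too. GGGCGG, the GC box known to be bound by SP1, lay in 6 of the 11, from PSAT1, SHMT1, MTHFD1L and MTHFD2L, against 42.6% of all promoters. PHGDH had none of these 4 motifs, and no motif was shared by PHGDH, SHMT1, MTHFD1 and MTHFD2. These matches describe letters in the window and not binding.

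The silenced gene was checked first. WDR5 stood at 16.5, 15.2 and 16.1 RPKM in the 3 shLuc libraries and at 7.34, 7.65 and 6.52 RPKM in the 3 shWDR5 libraries. The groups did not overlap, and WDR5 fell by 1.15 ± 0.074 on the log2 scale (SE, adjusted p = 8.67e-07, edgeR). The libraries held between 38218108 and 57640167 reads assigned to genes. Epithelial markers (EPCAM, CDH1, KRT8, KRT18 and KRT19) summed to between 1859 and 2123 RPKM and basal markers (KRT5, KRT14, KRT17 and TP63) to between 1713 and 3675 RPKM, the basal sum being higher in every shWDR5 library. KRT8 and KRT18 carried most of the epithelial sum, in which CDH1 fell from 103.0 to 50.3 RPKM and EPCAM from 164.9 to 130.8 RPKM while KRT19 rose from 0.893 to 3.18 RPKM. These 3 markers were named after their values were seen. The fibroblast, leukocyte and endothelial lists each summed to less than 8 RPKM in every library. The highest members were COL1A1 (3.72 RPKM in shLuc, 2.63 RPKM in shWDR5), CD68 (6.39 and 5.97 RPKM) and PECAM1 (1.46 and 0.891 RPKM). LUM and CD3E had no read in any library. COL1A1, CD14 and PECAM1 were lower in shWDR5 at an adjusted p below 0.05 in edgeR.

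The 3 enzymes of serine synthesis did not move together. PHGDH, the dehydrogenase that commits 3-phosphoglycerate to serine (hg19 chr1:120254419-120286849, plus strand), was at 70.5, 66.6 and 61.2 RPKM in the shLuc libraries and at 34.5, 34.1 and 29.9 RPKM in the shWDR5 libraries. Every shWDR5 value lay well below every control value. The level was 2.01-fold lower in shWDR5, a log2 change of -1.01 ± 0.075 (SE, 95% interval -1.17 to -0.84, adjusted p = 2.13e-06, edgeR), and only 4.18% of the genes tested had a lower log2 fold change.

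PSAT1, the aminotransferase that turns phosphohydroxypyruvate into phosphoserine (hg19 chr9:80911991-80945009, plus strand), was at 35.7, 39.2 and 42.0 RPKM in shLuc and at 38.5, 41.1 and 42.0 RPKM in shWDR5. The groups overlapped almost completely. Its log2 change was 0.057 ± 0.069 (SE, adjusted p = 0.51, edgeR), with a 95% interval of -0.096 to 0.21 that leaves out a change of the size seen for PHGDH.

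PSPH, the phosphatase of the last step (hg19 chr7:56078744-56119268, minus strand), was at 10.4, 10.96 and 11.5 RPKM in shLuc and at 9.44, 9.97 and 9.11 RPKM in shWDR5. The groups were separate by a narrow margin. The log2 change of -0.20 ± 0.070 (SE, adjusted p = 0.031, edgeR) was past the threshold, but the adjusted p was 0.065 in DESeq2 and between 0.063 and 0.11 when shLuc library 2, shLuc library 3, shWDR5 library 1 or shWDR5 library 3 was left out.

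PHGDH and PSAT1 exchanged places in the order of levels per length. The RPKM ratio of PHGDH to PSAT1 was 1.97, 1.70 and 1.46 in the shLuc libraries and 0.896, 0.831 and 0.712 in the shWDR5 libraries. PHGDH was thus the more abundant transcript in each control library and PSAT1 in each silenced one. The 3 serine synthesis genes summed to 116.0 ± 1.08 RPKM in shLuc (SD, n = 3) and to 82.9 ± 2.13 RPKM in shWDR5 (SD, n = 3). This ratio and the sums over enzymes given here and below were chosen after the values were seen and carry no test.

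The serine hydroxymethyltransferases changed in opposite directions. SHMT1, the cytosolic form (hg19 chr17:18231174-18266877, minus strand), was at 35.0, 34.6 and 35.5 RPKM in shLuc and at 19.4, 19.0 and 16.7 RPKM in shWDR5. The control values lay close together and far above the silenced ones. Its level was 1.91-fold lower in shWDR5, a log2 change of -0.93 ± 0.066 (SE, 95% interval -1.08 to -0.79, adjusted p = 1.54e-06, edgeR).

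SHMT2, the mitochondrial form (hg19 chr12:57623356-57628718, plus strand), was at 97.1, 88.8 and 86.3 RPKM in shLuc and at 117.2, 112.7 and 107.0 RPKM in shWDR5. All 3 shWDR5 values exceeded all control values. The rise was 1.24-fold, a log2 change of 0.31 ± 0.061 (SE, 95% interval 0.17 to 0.44, adjusted p = 0.0015, edgeR), and it did not pass a test against a minimum log2 change of 0.3 (adjusted p = 0.46, edgeR glmTreat). SHMT2 became the most abundant of the 10 transcripts per length in shWDR5 cells, where MTHFD2 held that place in shLuc cells.

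Because the scaling of a library cancels in a ratio taken within it, the forms were also compared library by library. SHMT2 reads per kilobase exceeded those of SHMT1 by 2.59 ± 0.173 times in shLuc (SD, n = 3) and by 6.13 ± 0.239 times in shWDR5 (SD, n = 3). The SHMT2 share of the SHMT1 and SHMT2 RPKM together was 73.5%, 72.0% and 70.9% in the shLuc libraries and 85.8%, 85.6% and 86.5% in the shWDR5 libraries. The log2 ratio differed by 1.24 between groups that did not overlap (exact two-sided permutation test p = 0.1, the smallest value that 3 against 3 libraries can give, and 0.1 after adjustment over the 3 ratios tested).

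MTHFD1 and its mitochondrial relative MTHFD1L also diverged. MTHFD1, which carries dehydrogenase, cyclohydrolase and formyl-tetrahydrofolate synthetase activities in a single cytosolic protein (hg19 chr14:64854759-64926725, plus strand), was at 68.7, 65.4 and 66.5 RPKM in shLuc and at 44.7, 46.6 and 42.2 RPKM in shWDR5. The control values clustered closely and the silenced values lay beneath them in each library. The log2 change was -0.59 ± 0.055 (SE, 95% interval -0.71 to -0.46, adjusted p = 1.02e-05, edgeR), just short of the fold minimum of 0.6.

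MTHFD1L, the mitochondrial formyl-tetrahydrofolate synthetase that releases formate (hg19 chr6:151186815-151423023, plus strand), was at 19.9, 17.6 and 17.8 RPKM in shLuc and at 19.0, 18.7 and 17.2 RPKM in shWDR5. The groups overlapped. Its log2 change was -0.011 ± 0.068 (SE, adjusted p = 0.91, edgeR), with a 95% interval of -0.16 to 0.14 that does not reach the change of MTHFD1. The ratio of MTHFD1L to MTHFD1 in reads per kilobase went from 0.275 ± 0.0125 in shLuc to 0.411 ± 0.0121 in shWDR5 (SD, n = 3 each, exact two-sided permutation test p = 0.1).

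The mitochondrial dehydrogenase-cyclohydrolases also moved apart, in opposite directions. MTHFD2, the form known to be induced in proliferating and tumour cells (hg19 chr2:74425690-74442424, plus strand), was at 99.5, 108.2 and 99.7 RPKM in shLuc and at 68.9, 79.5 and 73.3 RPKM in shWDR5. Each silenced value lay below each control value. The log2 change was -0.47 ± 0.065 (SE, 95% interval -0.62 to -0.33, adjusted p = 0.00014, edgeR).

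MTHFD2L, the related enzyme that is present in adult tissues (hg19 chr4:75023829-75168814, plus strand), was at 4.79, 5.52 and 4.89 RPKM in shLuc and at 6.63, 8.04 and 8.22 RPKM in shWDR5. Each silenced library was above each control. Its rise was 1.51-fold, a log2 change of 0.59 ± 0.098 (SE, 95% interval 0.38 to 0.81, adjusted p = 0.00045, edgeR), and 88.3% of the genes tested had a lower log2 fold change.

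The level of MTHFD2L nevertheless stayed far below that of MTHFD2. MTHFD2 exceeded MTHFD2L by 20.3 ± 0.607 times in shLuc and by 9.74 ± 0.755 times in shWDR5 (SD, n = 3 each, exact two-sided permutation test p = 0.1). MTHFD2L made up 4.71% ± 0.136 of the RPKM of the pair in shLuc and 9.35% ± 0.672 in shWDR5 (SD, n = 3 each). The rise of MTHFD2L from a mean of 5.06 to 7.63 RPKM was smaller in absolute terms than the fall of MTHFD2 from 102.4 to 73.9 RPKM.

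ALDH1L2, the mitochondrial formyl-tetrahydrofolate dehydrogenase that yields NADPH (hg19 chr12:105413562-105478341, minus strand), was barely detected, with 46, 51 and 49 reads in the shLuc libraries and 65, 80 and 52 in the shWDR5 libraries. In RPKM the groups overlapped between 0.123 and 0.187. Its log2 change was 0.21 ± 0.17 (SE, adjusted p = 0.32, edgeR), and the 95% interval of -0.17 to 0.60 shows that at this depth neither a rise of the size of MTHFD2L nor an absence of change could be told from the data. ALDH1L1, its cytosolic relative, was more abundant at 3.56 RPKM in shLuc and 3.29 RPKM in shWDR5, with a log2 change of -0.11 ± 0.078 (SE, adjusted p = 0.24, edgeR).

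**Figure D2:**
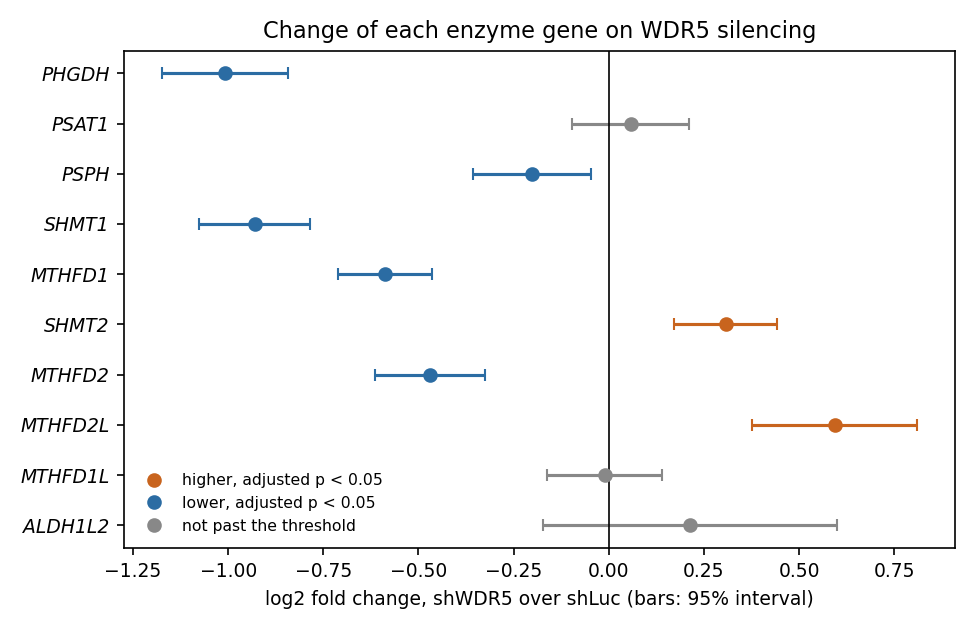
Log2 fold change of shWDR5 over shLuc for the 10 enzyme genes with its 95% interval from the edgeR fit, in blue for lower and orange for higher at an adjusted p below 0.05 and in grey otherwise. PHGDH (-1.01) and SHMT1 (-0.93) lie farthest to the left, MTHFD2L (0.59) and SHMT2 (0.31) are on the right, and the intervals of PSAT1, MTHFD1L and ALDH1L2 cross 0.

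The levels were also summed by compartment. SHMT1 and MTHFD1 together gave 103.7, 99.97 and 102.0 RPKM in the shLuc libraries and 64.0, 65.6 and 59.0 RPKM in the shWDR5 libraries. The mitochondrial enzymes SHMT2, MTHFD2, MTHFD2L, MTHFD1L and ALDH1L2 together gave 221.4, 220.3 and 208.8 RPKM in shLuc and 211.9, 219.1 and 205.9 RPKM in shWDR5. The cytosolic sums did not overlap and the mitochondrial sums did, with the rise of SHMT2 and the fall of MTHFD2 in opposite directions inside the latter. Over all 10 genes the sum was 434.7 ± 8.25 RPKM in shLuc and 358.1 ± 12.04 RPKM in shWDR5 (SD, n = 3 each).

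The order of levels per length also shifted. In shLuc it ran MTHFD2, SHMT2, MTHFD1, PHGDH, PSAT1, SHMT1, MTHFD1L, PSPH, MTHFD2L and ALDH1L2, and the library values of neighbours in this order overlapped only for MTHFD1 and PHGDH. In shWDR5 it ran SHMT2, MTHFD2, MTHFD1, PSAT1, PHGDH, SHMT1, MTHFD1L, PSPH, MTHFD2L and ALDH1L2, and SHMT1 and MTHFD1L were the only neighbours that overlapped, since SHMT1 had come down to the level of MTHFD1L.

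Of the 10 genes, 3 share exon bases with a gene on the other strand, and the library kit does not keep the strand. SHMT1 shares 197 of 2553 exon bases with SMCR8, MTHFD1 shares 178 of 3448 with ZBTB25 and SHMT2 shares 33 of 2862 with NDUFA4L2. SMCR8 had 3798 to 5810 reads per library, against 1937 to 4412 for SHMT1, and a log2 change of 0.095 ± 0.060 (SE, adjusted p = 0.21, edgeR). NDUFA4L2 had 162 to 239 reads and a log2 change of -0.061 ± 0.12 (adjusted p = 0.70). ZBTB25 had 420 to 573 reads and fell by 0.27 ± 0.076 on the log2 scale (adjusted p = 0.011). How reads in the shared bases were assigned is not given in the sources used here. These 3 neighbours were named for their position. The processed copy MTHFD2P1 had 38 to 55 reads per library, against 7297 or more for MTHFD2.

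The genes around the pathway were then counted in the same fit. Each count here and in the lists that follow stands beside 29.9% of all genes tested called lower and 26.6% called higher. A count near these shares does not set a list apart. The lists were chosen with earlier results of these data known, so a count far from these shares is not independent evidence. Of 13 tested genes of the folate cycle and folate transport, 3 were lower and 1 was higher, and the median log2 fold change was 0.0045. TYMS, the thymidylate synthase that uses the carbon unit of methylene-tetrahydrofolate, went from 19.9 to 13.7 RPKM (log2 change -0.54 ± 0.067, SE, adjusted p = 6.69e-05, edgeR). GGH, the lysosomal hydrolase that shortens folate polyglutamates, fell from 17.4 to 10.2 RPKM, and SLC46A1, the proton-coupled folate transporter, rose from 1.79 to 2.14 RPKM.

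Of 12 tested genes of glycine cleavage and other serine and glycine reactions, 6 were lower and 2 were higher, with a median log2 fold change of -0.24. Inside the glycine cleavage system, which breaks glycine down in the mitochondrion, AMT fell from 2.54 to 0.954 RPKM, a log2 change of -1.42 ± 0.12 (SE, adjusted p = 6.11e-06, edgeR). GLDC, the decarboxylase of the same system, rose from 0.125 to 0.468 RPKM, a log2 change of 1.90 ± 0.16 (SE, adjusted p = 4.49e-06), at a level that stayed low in both groups. GNMT, which methylates glycine, had 9, 2 and 6 reads in the shLuc libraries and 23, 30 and 34 in the shWDR5 libraries. It was called higher by edgeR (adjusted p = 0.00064), but it passed the filter on low counts only through the group in which it is high, and a filter of 50 reads removed it and left 1 gene of the list higher. GCAT, SPTLC2 and SARDH fell, by 0.91, 0.42 and 1.00 on the log2 scale. SARDH had 63, 54 and 53 reads in the shLuc libraries and 43, 32 and 23 in the shWDR5 libraries, below 0.5 RPKM in both groups.

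Among 9 carriers of serine and glycine, 4 were higher and 1 was lower, with a median log2 fold change of 0.10. SLC25A38, a mitochondrial glycine carrier, rose from 9.01 to 14.7 RPKM (log2 change 0.71 ± 0.067, SE, adjusted p = 1.01e-05, edgeR). SFXN3 and SFXN1, known as mitochondrial serine carriers, rose by 0.51 and 0.18 on the log2 scale, and SLC6A9, a glycine transporter of the plasma membrane, by 0.27. The call for SFXN1 was lost without shWDR5 library 3 (adjusted p = 0.057) and when libraries were scaled by their totals (adjusted p = 0.078). SLC1A5, a plasma membrane carrier of glutamine and other neutral amino acids, fell from 68.4 to 51.1 RPKM.

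In the methionine cycle and transsulfuration, 4 of 10 tested genes were lower and 2 were higher, with a median log2 fold change of -0.071. MTR, the methionine synthase that takes the methyl group from folate, fell from 6.28 to 4.84 RPKM (log2 change -0.38 ± 0.058, SE, adjusted p = 0.00029, edgeR), and MAT1A fell from 1.28 to 0.980 RPKM. MTAP rose from 0.260 to 0.447 RPKM, a low level in both groups, with 50 to 57 reads in the shLuc libraries and 93 to 120 in the shWDR5 libraries. The changes of MTRR (-0.20), CTH (-0.53) and AHCY (0.18) were past the threshold with all libraries but not in each fit that left a library out, where the adjusted p reached 0.094 for MTRR, 0.11 for CTH and 0.099 for AHCY.

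Of the 6 enzymes of purine synthesis, 4 were lower, and the median log2 fold change was -0.24. GART and ATIC, which take formyl groups from folate, fell by 0.34 and 0.29 on the log2 scale, and PAICS fell by 0.34, each with a smaller change than PHGDH, SHMT1 or MTHFD1. PFAS was at -0.18, with an adjusted p of 0.048 that rose above 0.05 in DESeq2 (0.092) and when shLuc library 1 (0.15), shLuc library 2 (0.12) or any of the shWDR5 libraries (0.063 to 0.17) was left out.

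ATF4 is the transcription factor of the amino acid response and is known to activate PHGDH, PSAT1, SHMT2 and MTHFD2. Its own transcript was at 258.0 RPKM in shLuc and 212.7 RPKM in shWDR5, a log2 change of -0.28 ± 0.050 (SE, adjusted p = 0.00076, edgeR). The ATF4 change did not pass the test against a minimum log2 change of 0.3 (adjusted p = 0.70, edgeR glmTreat). In a list of 28 genes of its programme, which holds none of the 10 enzymes, 10 were lower and 8 were higher, with a median log2 fold change of -0.040. With the fold and level minimum added, 8 were higher and 1 was lower (EIF4EBP1), where that rule called 7.9% of all genes tested higher and 10.5% lower. CHAC1, a glutathione-degrading enzyme, rose from 1.68 to 8.93 RPKM, and STC2, SESN2 and ATF5 rose by 1.73, 1.07 and 1.04 on the log2 scale. The arginine carrier SLC7A1, the tRNA synthetase AARS, the translation inhibitor EIF4EBP1 and the mitochondrial PEP carboxykinase PCK2 fell by 0.59, 0.56, 0.61 and 0.57.

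MYC, reported to activate several of the enzyme genes, was at 69.7 RPKM in shLuc and 91.2 RPKM in shWDR5, a log2 change of 0.39 ± 0.051 (SE, adjusted p = 9.88e-05, edgeR). The enzyme genes changed in both directions, and a part of MYC, or of ATF4, in their changes was not tested. All 9 genes of the list of reported regulators were higher in the edgeR fit, with log2 changes from 0.18 to 1.12. The count was 8 when libraries were scaled by totals alone or low counts were not filtered. It was also 8 when shLuc library 2, shWDR5 library 2 or shWDR5 library 3 was left out. With the fold and level minimum added, 2 of the 9 were higher, KDM4C and MYCN. In the glmTreat test against a minimum log2 change, 3 of the 9 were higher. By adjusted p in the main edgeR fit, the strongest calls besides MYC were KDM4C, a histone demethylase (0.68), TP73 (1.12) and MYCN (0.69). TP73 stayed below 1 RPKM in both groups.

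Genes of proliferating cells were lower in shWDR5 libraries. All 13 of a list of cycle and replication genes were called lower by edgeR, against 29.9% of all genes tested. Again 13 were called lower in each alternative scaling. With the fold and level minimum added, 10 of the 13 were lower, where that rule called 10.5% of all genes tested lower. MKI67 went from 41.5 to 19.4 RPKM, the replication licensing factor MCM5 from 40.1 to 17.01 RPKM, the ribonucleotide reductase subunit RRM2 from 82.4 to 42.9 RPKM and TOP2A from 63.6 to 34.4 RPKM. The summed list was between 597.7 and 613.6 RPKM in shLuc and between 348.3 and 357.4 RPKM in shWDR5. The log2 changes of the list ran from -1.24 to -0.41, with a median of -0.84. PHGDH (-1.01), SHMT1 (-0.93), MTHFD1 (-0.59) and MTHFD2 (-0.47) lay inside this range, and PSPH (-0.20) lay outside it. PSAT1 (0.057), MTHFD1L (-0.011) and ALDH1L2 (0.21) did not pass the test, and SHMT2 and MTHFD2L rose. These values were set side by side after they were seen. The part of the proliferation genes, and of the epithelial and basal markers that changed, in the changes of the enzyme genes was not tested, and in bulk RNA fewer cells with a transcript and less of it per cell cannot be told apart.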

How the data were processed

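Gene-level read counts of 6 poly-A RNA libraries were used as the authors deposited them. The submitters' processing notes name TopHat2 2.1.0, featureCounts (version not given in the sources used here), edgeR 3.2.2 and the build hg19, and the file header has the featureCounts layout of whole-number counts per gene. The deposited gene length in exon bases served for RPKM. A further deposited table holds the authors' own edgeR fold changes and p-values and was not used.

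Genes were filtered with filterByExpr, scaled with TMM and tested with edgeR 4.0.16 (quasi-likelihood, shWDR5 against shLuc, Benjamini-Hochberg over 16117 genes). The standard error is the absolute log2 change over the root of F. RPKM used TMM-scaled library sizes (factors 0.971 to 1.026). Fits were tested on simulated data. The replicate counts differed by more than sampling noise. Alternatives were DESeq2 1.42.0, other scalings, filters, a replicate block and leaving out each library. Beside the enzymes, up to 4 genes per list and direction with the smallest adjusted p were named, plus WDR5, ALDH1L1, TYMS, MYC and ATF4. One gene that this rule names is not reported here. The enzymes and lists were chosen with earlier results of these data known. Intervals cover the spread between libraries.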

Additional observations from a re-analysis of the deposited data

How the results depend on the processing

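The log2 fold changes of the 10 enzyme genes were recomputed under 14 alternatives each, giving 140 values, of which 132 kept their side of the threshold and 8 lost the call (7 for PSPH and 1 for SHMT2). Over the 57 genes tracked, 748 of 796 values did so and 48 lost the call. No called gene changed sign, while MTHFD1L, which was not called, lay between -0.068 and 0.064. Under the fold and level minimum the counts of enzyme genes were 0 higher and 2 lower, and 2962 genes were called in all. The count of 0 is also 0 at an unadjusted p below 0.05 in the main edgeR fit, since MTHFD2L lies at 0.593, and is 1 in DESeq2, where it lies at 0.603. In edgeR MTHFD2L was also past 0.6 with RLE scaling (0.611), upper-quartile scaling (0.630) or the filter of 50 reads (0.609). MTHFD1 was past the fold minimum, at -0.645, when libraries were scaled by totals. Both counts under the fold and level minimum thus depend on the scaling. In a test against a minimum log2 change of 0.3, chosen after seeing the data, 1 enzyme gene was higher, 4 were lower and 4820 genes were called. Leaving out each library gave 4 to 5 lower and 2 higher enzyme genes, and log2 ratio differences of 1.20 to 1.29 (SHMT2 over SHMT1), 0.556 to 0.617 (MTHFD1L over MTHFD1) and -1.11 to -0.998 (MTHFD2 over MTHFD2L). Scaling by library totals shifted the median of all genes by -0.057 and upper-quartile scaling by 0.037. A replicate block gave 2 higher and 5 lower enzyme genes and 10412 calls in all, and ratio differences of 1.24, 0.579 and -1.06. Deviations of same-numbered libraries correlated at 0.372, 0.0358 and 0.116. Not every value is over 0.1, and shLuc library 2 correlated best with shWDR5 library 3, so the numbers were not taken as pairs, and whether libraries share a batch was not tested. Depth limits ALDH1L2 most, with 46 to 80 reads per library.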
